A study of Mus musculus with 6 samples.

Results

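In wild-type (WT) mouse adrenal glands, 634 genes carried the fewest RNA polymerase II reads at the transcription start site (TSS) relative to the gene body. They were the lowest 5% of the 12692 genes, of 12718 in the tables, whose summed WT counts over both regions reached 100. The ratio that chose them was the summed WT TSS count divided by the summed WT gene body count plus 1, with the predicted gene Gm10800 left out. The ratio of the members ran from 0.000585 to 0.0117 with a median of 0.00674, and the median of the other 12058 genes was 0.146. Because WT TSS and gene body counts chose the members, the genotype comparisons of both counts and of their ratio are given as a description, and no p printed for them supports a result. The counts at the transcription end site (TES) played no part in the choice.

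DNA bound by polymerase was captured by ChIP-seq, in which crosslinked chromatin is immunoprecipitated and sequenced, here against the amino-terminal domain (NTD) of the polymerase's catalytic subunit RPB1. The 2 groups were 3 WT and 3 Armc5(-/-) knockout mice, all female, of strain 129 sv X CD1 and 10 to 14 months old. Armc5 encodes an armadillo-repeat protein, and the labels give neither a Cre driver nor a tissue restriction for the knockout. Each library carries its own mouse number in the labels, so n = 3 animals per genotype.

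RNA polymerase II starts at a promoter, moves through the gene body and is released past the polyadenylation site. At many genes it accumulates shortly after the start, where pausing factors hold it until it is released into elongation, and it often accumulates again near the end before termination. A low ratio of promoter to gene body signal is therefore read in this field as little pausing or fast release, but the gene body count also grows with gene length, since longer genes offer more bases to count over.

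The promoters of 8 genes are shown so that the range of base composition among the members can be seen beside genes with much TSS signal. They run from 250 bases before to 50 bases after the RefSeq start (GRCm38.p6), 5′ to 3′ on the gene's strand, with CG pairs and the TATA-box letters TATAAA or their reverse complement TTTATA in capitals, overlapping matches included. Cacna1c, Mbnl1 and Gpc5 had the lowest ratios among members with a promoter in the RefSeq table, Alas1 and H3f3b were among the members with the highest TES counts, and Map7 had the most CG pairs at the start used, which was the most upstream one in the table for a gene. Polr2a, which encodes RPB1 itself, and Jund, a subunit gene of the AP-1 transcription factor, are not members and had the most WT TSS counts of the other genes with a promoter in the table.
Cacna1c (chr6:119196360-119196659, minus strand): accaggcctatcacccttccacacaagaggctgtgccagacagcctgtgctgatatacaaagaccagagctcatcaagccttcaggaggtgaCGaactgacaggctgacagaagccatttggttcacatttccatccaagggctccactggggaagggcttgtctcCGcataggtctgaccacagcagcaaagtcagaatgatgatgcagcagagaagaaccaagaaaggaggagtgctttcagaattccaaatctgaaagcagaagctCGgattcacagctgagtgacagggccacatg
Mbnl1 (chr3:60472580-60472879, plus strand): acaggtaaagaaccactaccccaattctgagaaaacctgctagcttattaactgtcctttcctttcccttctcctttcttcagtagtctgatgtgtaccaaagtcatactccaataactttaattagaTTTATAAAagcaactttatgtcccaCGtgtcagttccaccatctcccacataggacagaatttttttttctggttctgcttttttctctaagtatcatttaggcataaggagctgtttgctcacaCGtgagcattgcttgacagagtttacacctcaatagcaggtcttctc
Gpc5 (chr14:115091965-115092264, plus strand): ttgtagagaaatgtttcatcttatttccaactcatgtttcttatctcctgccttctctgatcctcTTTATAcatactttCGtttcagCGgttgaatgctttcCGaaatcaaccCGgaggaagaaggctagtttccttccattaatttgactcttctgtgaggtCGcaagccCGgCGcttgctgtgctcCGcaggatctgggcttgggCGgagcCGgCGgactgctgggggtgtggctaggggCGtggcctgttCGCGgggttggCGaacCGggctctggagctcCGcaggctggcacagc
Alas1 (chr9:106247905-106248204, minus strand): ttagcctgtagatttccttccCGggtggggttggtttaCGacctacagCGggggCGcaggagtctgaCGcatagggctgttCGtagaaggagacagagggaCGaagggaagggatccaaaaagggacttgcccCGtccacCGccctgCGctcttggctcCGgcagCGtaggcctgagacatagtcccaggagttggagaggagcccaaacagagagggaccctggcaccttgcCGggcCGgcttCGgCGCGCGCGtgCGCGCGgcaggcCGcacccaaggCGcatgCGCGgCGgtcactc
H3f3b (chr11:116024455-116024754, minus strand): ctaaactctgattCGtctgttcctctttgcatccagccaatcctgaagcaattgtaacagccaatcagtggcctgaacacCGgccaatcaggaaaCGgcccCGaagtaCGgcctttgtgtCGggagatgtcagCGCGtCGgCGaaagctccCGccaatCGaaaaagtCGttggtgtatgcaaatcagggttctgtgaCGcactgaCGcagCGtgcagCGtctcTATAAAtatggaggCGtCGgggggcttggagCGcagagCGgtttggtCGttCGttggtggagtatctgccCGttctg
Map7 (chr10:20148670-20148969, plus strand): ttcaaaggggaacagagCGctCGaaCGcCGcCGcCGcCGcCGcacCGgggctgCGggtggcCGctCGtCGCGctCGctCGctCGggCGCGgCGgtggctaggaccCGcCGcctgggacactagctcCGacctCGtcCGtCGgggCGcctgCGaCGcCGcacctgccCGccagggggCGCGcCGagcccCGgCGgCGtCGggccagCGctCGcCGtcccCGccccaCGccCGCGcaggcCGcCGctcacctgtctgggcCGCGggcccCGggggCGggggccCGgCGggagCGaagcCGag
Polr2a (chr11:69758584-69758883, minus strand): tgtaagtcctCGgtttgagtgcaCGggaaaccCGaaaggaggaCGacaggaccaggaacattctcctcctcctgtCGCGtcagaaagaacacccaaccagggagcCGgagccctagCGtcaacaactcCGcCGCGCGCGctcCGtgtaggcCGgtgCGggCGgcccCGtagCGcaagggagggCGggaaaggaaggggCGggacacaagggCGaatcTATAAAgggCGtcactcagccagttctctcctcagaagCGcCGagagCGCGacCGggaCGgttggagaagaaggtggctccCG
Jund (chr8:70697489-70697788, plus strand): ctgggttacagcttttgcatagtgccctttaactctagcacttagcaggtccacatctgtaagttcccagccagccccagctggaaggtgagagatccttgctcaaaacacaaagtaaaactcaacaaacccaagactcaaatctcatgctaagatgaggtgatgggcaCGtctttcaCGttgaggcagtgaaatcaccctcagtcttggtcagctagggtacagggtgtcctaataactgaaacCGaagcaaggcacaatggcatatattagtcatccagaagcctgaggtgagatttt

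Cacna1c and Mbnl1 had 3 and 2 CG pairs in these windows, Gpc5 had 17, H3f3b 24, Alas1 27 and Map7 55, against 30 for Polr2a and 3 for Jund. In the windows shown, few and many CG pairs occurred both among these members and between Polr2a and Jund. The summed WT counts at the TSS were 52 for Cacna1c, 27 for Mbnl1, 28 for Gpc5, 41 for Alas1, 82 for H3f3b and 60 for Map7, against 3808 for Polr2a and 3671 for Jund. The windows shown for Cacna1c and Mbnl1 are not their only ones: the second start of Cacna1c has 57 CG pairs and that of Mbnl1 41, and the second start of Alas1 has 44. The windows of Cacna1c, Mbnl1 and H3f3b lie wholly inside their RefSeq genes, whose own first bases are 119197384, 60472559 and 116026039. A RefSeq promoter was matched for 481 of the 634 members and for 9416 of the other genes. An observed-to-expected CpG ratio of at least 0.6 was found in 63.6% of member promoters and 74.2% of the others, and among genes over 100 kb in 64.7% and 81.5%. With the start of the highest such ratio in place of the most upstream one the shares were 71.7% and 76.3%, and among genes with 1 listed start 67.2% and 74.7%. The letters TATAAA, on either strand, occurred in 6.03% of member promoters, 6.64% of other genes' promoters and 14.2% of the promoters of all 27025 genes in the table. More than 1 RefSeq start was listed for 34.7% of the matched members and 17.8% of the other genes (over 100 kb, 34.2% and 25.6%). Which start the TSS counts refer to is not stated, so signal at another start of a member may be counted in its gene body.

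The libraries differed in depth in a way that crossed genotype. TSS totals ran from 1133364 to 3406223 counts, gene body totals from 12419812 to 22523647 and TES totals from 958001 to 2294430. Totals were smallest in WT replicates 1 and 2 and in knockout replicate 1, where Gm10800 took 10.9% to 25.1% of TSS counts, against 2.67% to 4.66% in the other 3. Counts at Star, Cyp11a1 and Cyp11b1, which make steroid hormones in the cortex, and at Dbh and Chga of the catecholamine-producing medulla were present in all 6 libraries. At the TES the lowest level per library was 349 CPM, that is, counts scaled to library size, for Cyp11a1, 462 CPM for Cyp11b1, 63.7 CPM for Dbh and 165 CPM for Chga. The CPM of each region were taken over the scaled total of that region's own table, so TSS and gene body CPM are on separate scales.

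Gene length separated the members from the other genes. The median RefSeq length was 190 kb for the 618 members with a length and 21.5 kb for the other genes. Members over 100 kb numbered 468 of 618 (75.7%), against 9.60% of the others, and 207 members (33.5%) were over 300 kb, against 0.869%. Read the other way, members made up 0.381% of the 3148 genes of at most 10 kb, 0.828% of the 4105 genes of 10 to 30 kb, 2.96% of those of 30 to 100 kb, 20.3% of those of 100 to 300 kb and 67.0% of the 309 genes over 300 kb. The longest members were Macrod2 (1998 kb), Dlg2 (1973 kb), Csmd1 (1643 kb), Fhit (1612 kb) and Ctnna3 (1574 kb). With the gene body count divided by length before the ratio was taken, 114 of the 634 members were among the lowest 5%.

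**Figure D1:**
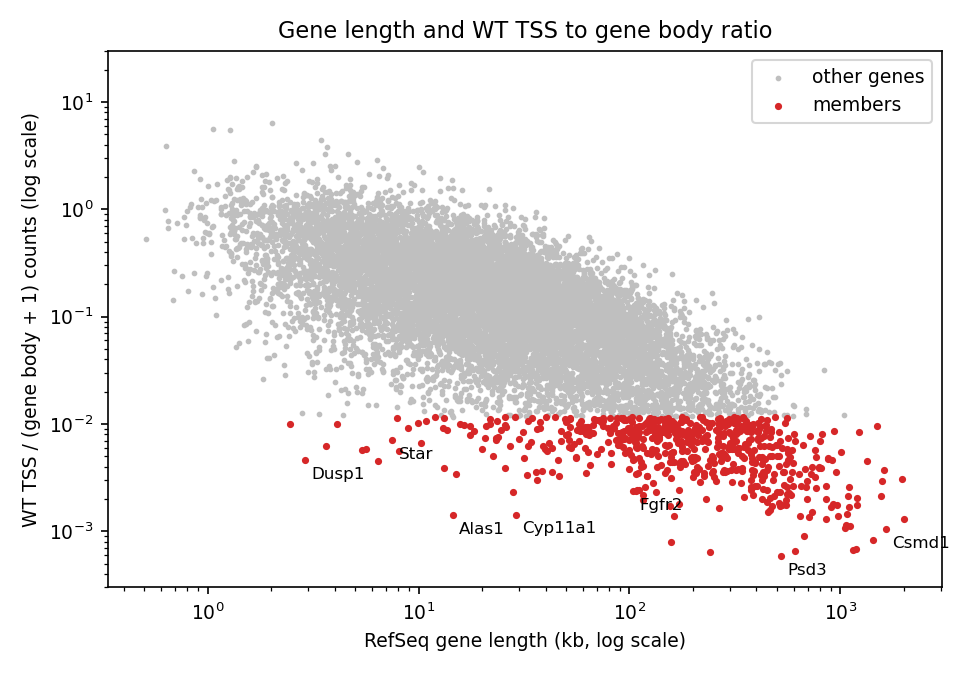
WT ratio of TSS counts to gene body counts plus 1 (log scale) against RefSeq gene length in kb (log scale), with 1 point per gene, members in red and other genes in grey. The ratio falls with length, and Alas1, Cyp11a1, Star and Dusp1 lie low for genes of their length.

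Both counts that make up the ratio differed between members and other genes, which is at least partly built into the choice. The median summed WT TSS count was 58 for members and 339 for other genes, and the median summed gene body count was 10601 and 2105. At the TES the medians were 179 and 244. TSS counts were sparse, with 334 members under 60 summed WT counts and 63 under 30, so a single member's TSS level rests on few reads. The TSS windows of members held 0.854% to 1.09% of a library's TSS counts, whereas their gene bodies held 17.1% to 21.2% and their TES windows 3.74% to 4.37%. The members just inside the limit were Pfkfb2 (57 TSS and 4904 gene body counts), Capns1 (37 and 3181) and Shtn1 (53 and 4537). Just outside were Chn2 (139 and 11897), Pde5a (96 and 8198) and Cdh22 (47 and 4009).

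Gene body counts divided by length differed between short and long members. In WT, members had a median of 51.2 gene body counts per kb and other genes 92.4. Among genes of at most 10 kb the medians were 1529 counts per kb for members and 178 for others, and at 10 to 30 kb they were 254 and 96.4. Over 300 kb the order was the opposite, with 33.5 counts per kb for members and 45.9 for others. All 46 members of at most 30 kb lay above the median density of all genes. In total 184 members were at or above that median, with a median length of 68.2 kb, and 434 were below it, with a median length of 270 kb. The same WT gene body counts were in the ratio that chose the members. The high density of short members is therefore partly built into the choice. No input library was used here, so reads of unbound DNA cannot be told apart from polymerase in the sparse bodies of long genes.

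The TES, which the rule did not use, carried more counts than the TSS in 549 of the 634 members in WT (86.6%) and in 41.6% of the other genes. In the knockout the shares were 69.9% and 33.5%. The counts compared are unscaled, so these shares also carry the libraries' different TSS and TES totals. The dense members had the higher TES: the median ratio of TES to TSS counts was 7.29 among the 184 at or above the median density and 1.96 among the 434 below it. In all 46 members of at most 30 kb the WT TES count was above the TSS count, with a median ratio of 14.7, while over 300 kb this was so in 135 of 207, with a median ratio of 1.38. The TSS count was also in the ratio that chose the members, so an excess of TES over TSS counts is partly built into the choice.

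Steroid hormone genes of the adrenal cortex were among the members. Of 17 steroidogenesis genes that reached the minimum, 5 were members (29.4%): Scarb1, Star, Por, Cyp11a1 and Hsd3b1. The others, which include the steroid hydroxylase genes Cyp11b1 and Cyp21a1, the receptor gene Mc2r and the factor gene Nr5a1, had ratios of 0.0263 to 0.341. Cyp11a1, the side-chain cleavage enzyme that makes the first steroid from cholesterol, had the lowest ratio of the list, 0.00143, and ranked 20 from the lowest of all genes (chromosome 9, 57998024 to 58027031, 29.0 kb). Its TSS levels were 7.08, 3.10 and 2.88 CPM in WT against 9.01, 8.76 and 8.78 CPM in the knockout. Its gene body levels were 359, 216 and 380 CPM in WT against 291, 325 and 273 CPM in the knockout, and its TES levels were 545, 352 and 549 against 429, 349 and 413 CPM. The 3 knockout libraries were all above WT at the TSS, on 25 summed WT counts in all, while the groups overlapped in the other regions. At the TES the log2 fold change of -0.28 ± 0.28 did not pass (SE; edgeR, adjusted p = 0.960).

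Star, which carries cholesterol into mitochondria, had the highest TES level of any member and the highest gene body density, 4302 WT counts per kb over 7.51 kb (chromosome 8, 25808474 to 25815982). Its TES levels were 2050, 694 and 884 CPM in WT against 1700, 1120 and 1230 CPM in the knockout, and its TSS levels were 48.5, 36.2 and 33.9 against 60.2, 47.1 and 48.3 CPM. WT replicate 1 was the highest at the TES and WT replicate 2 the lowest, and the groups overlapped in both regions. Hsd3b1, a dehydrogenase of steroid synthesis, showed the same order of WT libraries at the TES (1140, 379 and 577 CPM; knockout 1020, 697 and 759 CPM). Scarb1, the receptor for cholesterol uptake from high-density lipoprotein, had the most TSS counts of all members, 1028 summed over WT, and still fell under the limit because its gene body held 118513. Por, the electron donor of microsomal P450 enzymes, had TSS levels of 15.8, 12.4 and 14.4 CPM in WT against 19.1, 30.4 and 20.5 CPM in the knockout. Each of its knockout libraries was above all WT libraries at the TSS, with a log2 fold change of 0.71 that did not pass (edgeR, adjusted p = 0.852).

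Alas1 and Adh1 were dense metabolic members outside that list. Alas1, the first enzyme of heme synthesis, held 701 gene body counts for each TSS count in WT (chromosome 9, 106233455 to 106247954, 14.5 kb). It had TSS levels of 8.71, 14.5 and 3.52 CPM in WT against 14.6, 5.75 and 8.05 CPM in the knockout, and TES levels of 1140, 582 and 877 against 1060, 1090 and 842 CPM. The groups overlapped in both regions. Adh1, an alcohol dehydrogenase, had TES levels of 1080, 383 and 621 CPM in WT against 881, 657 and 633 CPM in the knockout, which overlapped too. WT replicate 2 was the lowest library at the TES for Star, Hsd3b1, Adh1 and Alas1. It was also the library with the fewest TES counts.

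**Figure D2:**
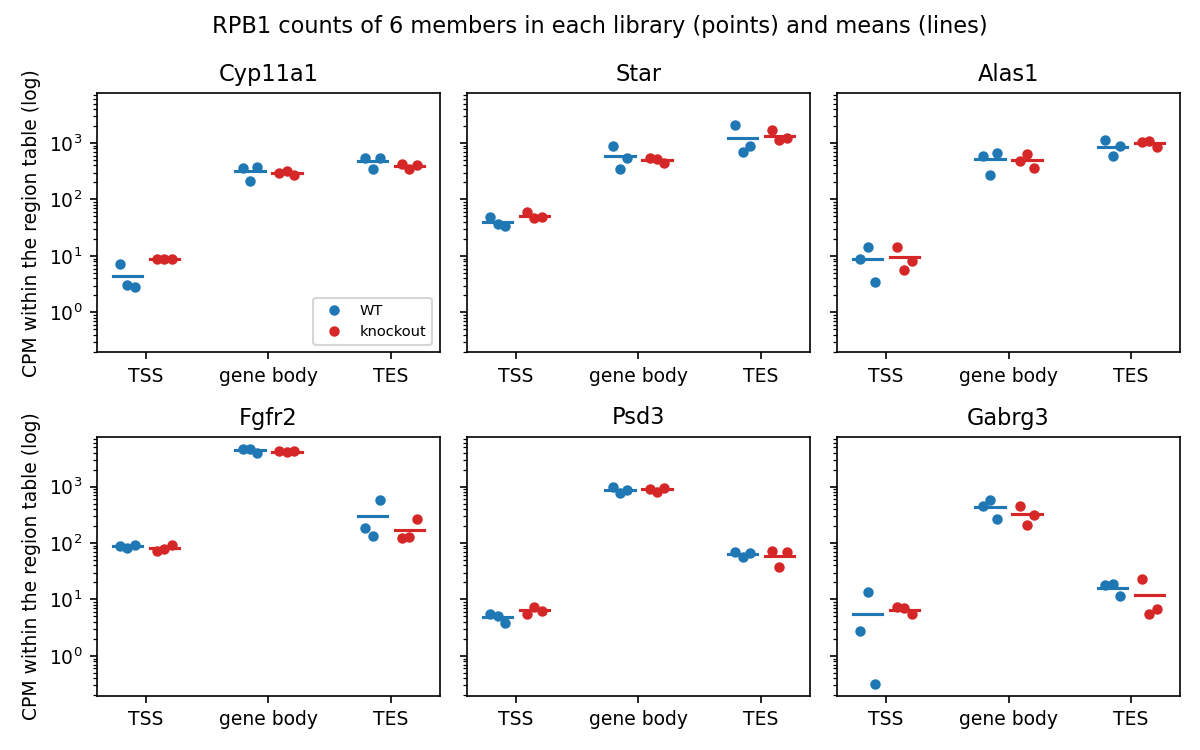
CPM (log scale) of 6 members over TSS, gene body and TES, with 1 point per library, lines at the group mean, WT in blue and knockout in red. Cyp11a1, Star and Alas1 have TES levels of at least 349 CPM in every library, whereas Gabrg3, a gene of 671 kb, has TES levels of 5.48 to 23.0 CPM.

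The shortest members included Zfp36, Dusp1 and H3f3b. Zfp36, which promotes mRNA decay, and Dusp1, a phosphatase that acts on MAP kinases, are both immediate early genes, of 2.45 and 2.88 kb. Zfp36 had TES levels of 520, 566 and 625 CPM in WT against 632, 699 and 680 CPM in the knockout. All 3 knockout libraries were above the WT libraries, by 0.23 on the log2 scale, which did not pass (edgeR, adjusted p = 0.972). Dusp1 had TES levels of 613, 360 and 594 CPM in WT against 590, 519 and 624 CPM in the knockout, which overlapped. H3f3b, which encodes the replication-independent histone H3.3, had TES levels of 833, 473 and 1010 CPM in WT against 402, 470 and 604 CPM in the knockout. Its groups overlapped through WT replicate 2, and the TES log2 fold change of -0.65, which did not pass (edgeR, adjusted p = 0.646), passed without that library. Rpl3 was the only member among 77 cytosolic ribosomal protein genes (1.3%). Ywhaz, a 14-3-3 adaptor gene of 32.7 kb, was the only member among 20 housekeeping genes (5%).

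For some short members the position of the counts is uncertain. Lrrc4, a synaptic adhesion gene of 3.62 kb, lies inside Snd1 in RefSeq, and its gene body held 14152 WT counts while its TES held 158. Atp5o, an ATP synthase subunit gene of 6.41 kb, held 17622 gene body and 243 TES counts, and B3gnt2 and Sod2 likewise had under 100 TES counts beside 15043 and 5002 gene body counts. The gene models behind the counts are not stated, so a gene body longer than the RefSeq gene cannot be told apart from a dense short one. Another protein-coding gene lay inside 58 of the 618 members with a position (9.39%), against 2.03% of other genes. Overlap of any kind with another protein-coding gene was found for 110 members (17.8%) and 21.2% of other genes. Reads in such an overlap may be counted in both genes. These shares were not matched for gene length.

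The lowest ratios of all belonged mostly to long genes. Psd3, an exchange factor for the small GTPase ARF6, had the lowest, with 1709 gene body counts per TSS count over 523 kb. It had TSS levels of 5.44, 5.17 and 3.84 CPM in WT against 5.63, 7.39 and 6.22 CPM in the knockout, gene body levels of 995, 755 and 866 against 902, 808 and 955 CPM, and TES levels of 69.8, 55.9 and 65.2 against 73.6, 37.0 and 69.3 CPM. All 3 knockout libraries were above WT at the TSS, on 27 summed WT counts, and the groups overlapped elsewhere. Next came Gramd1b, Cacna1c, Sgcz, Cdh13, Mbnl1, Gpc5 and Gabrg3. Gramd1b encodes a protein that moves cholesterol from the plasma membrane to the endoplasmic reticulum, and its gene body levels were 4050, 1530 and 3260 CPM in WT against 3330, 3310 and 3770 CPM in the knockout. WT replicate 2 was far below the other libraries. The TES of Gramd1b followed the same pattern, with 578, 210 and 530 CPM in WT against 463, 376 and 595 CPM in the knockout.

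Fgfr2, a fibroblast growth factor receptor gene of 104 kb, held 226340 gene body counts over the WT libraries, the most of any member except a predicted gene without a RefSeq match, which held 329704. Its gene body levels were 4660, 4540 and 3970 CPM in WT against 4210, 4030 and 4180 CPM in the knockout, and its TES levels were 188, 135 and 586 CPM in WT against 123, 129 and 263 CPM in the knockout. WT replicate 3 was the highest at the TES, and the groups overlapped. The TES log2 fold change was -0.82 ± 0.34 (SE; edgeR, adjusted p = 0.525), and it passed with depth class as a covariate, without knockout replicate 3 and in the 3 libraries with the most counts. After Fgfr2 and Gramd1b came the synaptic scaffold gene Dlg2, Scarb1, the proprotein convertase gene Pcsk5, the zinc finger repressor gene Zbtb20, the kinase gene Mast4 and the calcium channel gene Cacna1c. Of these, Dlg2, Pcsk5, Zbtb20, Mast4 and Cacna1c are over 300 kb long.

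The share of members differed widely between the gene lists. In a list named for neuronal adhesion and synapse organisation, which also holds the hydrolase gene Macrod2, 21 of 28 genes were members (75%). The median length was 880 kb for that whole list and 1077 kb for its members. The lists were not matched for gene length. Next came cyclic nucleotide phosphodiesterase genes (6 of 14) and genes of the dystrophin complex and large muscle proteins (6 of 15). Cadherin and protocadherin genes (13 of 33) came after these, with 9 of the 13 members clustered Pcdhg genes of nearly equal TES counts. The steroidogenesis genes described above (5 of 17) and neurotransmitter receptor genes (9 of 31) followed. Lower shares were found for protein tyrosine phosphatase receptors (3 of 13), adhesion G protein coupled receptors (3 of 13), RhoGEF and RhoGAP regulators (9 of 59), ion channels (13 of 89), collagen and basement membrane genes (5 of 36), axonemal dyneins (3 of 23) and ADAM proteases (3 of 26). Solute carriers (14 of 229), Zfp zinc finger genes (9 of 328) and cytochrome P450 genes (1 of 26) were near or below the 5% of the rule. No member was found among 33 ABC transporter, 34 replication-dependent histone, 20 complement and coagulation and 11 capsule and fibroblast genes. In each list with a member, the median length of the members was above that of the whole list. None of the lists had a member called at the TES.

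In 159 of the 207 members over 300 kb (76.8%) the 3 libraries with the fewest counts, WT replicates 1 and 2 and knockout replicate 1, were the 3 highest in gene body CPM. This was so in 70.6% of other genes over 300 kb and 20.6% of all genes at the minimum. Of the 22 longest members it held for 20. Macrod2, a mono-ADP-ribosyl hydrolase gene and the longest member, had gene body levels of 1110, 1720 and 581 CPM in WT against 1120, 509 and 774 CPM in the knockout. Csmd1, a complement control protein gene of the brain, had 908, 1550 and 728 against 886, 469 and 751 CPM. In Gabrg3, a GABA receptor subunit gene, the levels were 452, 576 and 266 against 455, 212 and 310 CPM. Each of these 3 genes had that order, and the groups overlapped in all 3. Dlg2, the second longest member, did not have it, with 2850, 2260 and 2030 CPM in WT against 2350, 2240 and 2330 CPM in the knockout, nor did Cacna1c, with 1980, 1190 and 1350 against 1550, 1390 and 1610 CPM. The TES levels of the first 3 genes were low, at 1.37 to 18.6 CPM for Macrod2, 3.66 to 29.4 CPM for Csmd1 and 5.48 to 23.0 CPM for Gabrg3.

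Clustered and duplicated genes cannot be read as separate members. Of the 12 Pcdhg protocadherin genes that reached the minimum, 9 were members, and their summed WT TES counts were 489 or 490 each, as genes that share their last exons would give. Dnah7a and Dnah7c, a pair of axonemal dynein genes of similar sequence, were also both members.

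Among the members, the markers of other cell types in the gland and of neighbouring kidney were all genes over 100 kb. They were Syt1 and Pcsk2, of 16 chromaffin cell genes, Ptprb and Tek, of 15 endothelial genes, Skap1, of 9 macrophage and lymphocyte genes, Ncam1, of 6 Schwann cell and glia genes, and Slc4a4, of 4 kidney tubule genes. The receptor tyrosine kinase gene Tek had TES levels of 69.2, 52.0 and 61.7 CPM in WT against 31.4, 39.3 and 48.7 CPM in the knockout. Every knockout library was below every WT library, and the log2 fold change of -0.61 ± 0.23 did not pass (SE; edgeR, adjusted p = 0.376). Ptprb, a receptor phosphatase gene of endothelium, had 59.1, 47.1 and 59.5 against 55.2, 47.1 and 56.1 CPM, which overlapped (log2 fold change -0.08, adjusted p = 0.986). In whole glands, fewer cells of a type and less polymerase per cell cannot be told apart.

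At the TES, 2 of the 634 members passed the test of knockout against WT (0.315%), 1 higher and 1 lower, while 0.915% of all 12680 tested genes passed (0.82% higher and 0.0946% lower; edgeR quasi-likelihood test, Benjamini-Hochberg adjusted p under 0.05). All 634 members passed the filter on low counts. Ctsl, which encodes the lysosomal protease cathepsin L (chromosome 13, 64361890 to 64370772), rose from 21.3, 29.4 and 18.4 CPM in WT to 74.3, 57.1 and 111 CPM in the knockout. Every knockout library was above every WT library, with a log2 fold change of 1.85 ± 0.26 (SE; edgeR, adjusted p = 9.71e-06). In its gene body the levels were 75.3, 47.2 and 87.0 CPM in WT against 109, 137 and 139 CPM in the knockout, which did not overlap either, and the log2 change of 0.87 did not pass (edgeR, adjusted p = 0.365). At the TSS the groups overlapped, with 10.9, 9.31 and 1.92 CPM in WT against 9.57, 5.20 and 9.51 CPM in the knockout.

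Ablim1, which encodes an actin-binding LIM protein (chromosome 19, 57032733 to 57315344), fell at the TES from 46.7, 125 and 121 CPM in WT to 25.3, 32.9 and 46.7 CPM in the knockout. The highest knockout library reached the lowest WT library, WT replicate 1, with a log2 fold change of -1.45 ± 0.27 (SE; edgeR, adjusted p = 0.00137). Its gene body levels were 226, 372 and 262 CPM in WT against 236, 150 and 190 CPM in the knockout, and its TSS levels were 11.4, 15.5 and 12.2 against 11.3, 11.2 and 12.1 CPM. The groups overlapped in the gene body, and all levels at the TSS were close together. The nearest coding gene, Afap1l2, lies 4144 bp away.

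The next smallest p-values among the members did not pass. The natriuretic peptide clearance receptor gene Npr3 had TES levels of 63.3, 55.9 and 58.6 CPM in WT against 36.8, 30.2 and 36.9 CPM in the knockout, with a log2 fold change of -0.78 (edgeR, adjusted p = 0.0963). The synaptotagmin gene Syt2 had 46.7, 65.7 and 41.5 against 26.1, 26.5 and 30.5 CPM (log2 fold change -0.86, adjusted p = 0.102). The thyroid hormone receptor gene Thrb had 60.9, 40.2 and 49.9 against 29.1, 25.6 and 32.5 CPM (-0.81, adjusted p = 0.139). In these 3 genes, as in the synphilin gene Sncaip (log2 fold change -1.46, adjusted p = 0.275), every knockout library was below every WT library. On the higher side, the cytosolic chaperone gene Hsp90aa1 had TES levels of 144, 78.4 and 141 CPM in WT against 190, 197 and 260 CPM in the knockout, which did not overlap (log2 fold change 0.82, edgeR, adjusted p = 0.178). Lrrn3, Rtl4 and Triobp had TES log2 fold changes of 0.69, 0.76 and 0.55 and adjusted p-values of 0.261, 0.355 and 0.490.

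**Figure D3:**
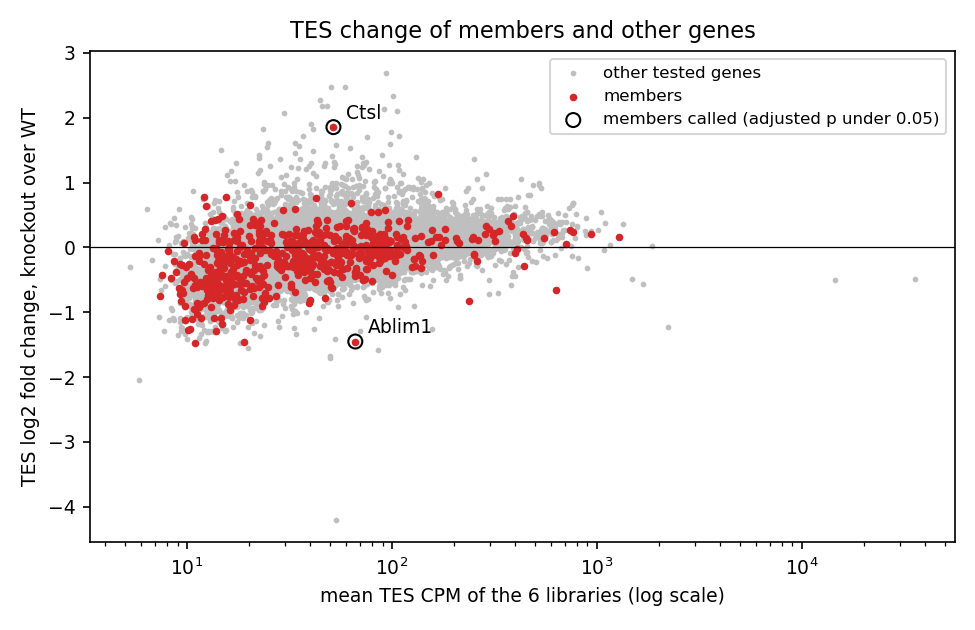
TES log2 fold change, knockout over WT, against the mean TES level in CPM of the 6 libraries (log scale), with members in red, other tested genes in grey and black rings around the 2 members called. Ctsl stands at 1.85 and Ablim1 at -1.45, and 224 of the 634 members lie above 0.

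Below the threshold the members leaned toward lower TES counts in the knockout. An unadjusted p under 0.05 in edgeR was found for 33 members (5.21%; all tested genes 6.85%), 26 of them with lower and 7 with higher TES counts (4.1% and 1.1%), while over all tested genes the shares were 2.48% and 4.37%. All 3 knockout libraries lay below all WT libraries for 48 members (7.57%; all genes 4.83%) and above them for 16 (2.52%; all genes 6.69%). The median TES log2 fold change was -0.13 for members and -0.02 for all tested genes, and 224 of 634 members were above 0. With depth class as a covariate the medians were -0.07 and 0.00, and in the 3 libraries with the most counts they were -0.04 and 0.01.

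The lean followed gene length among the members, and other genes over 100 kb showed it as well. At 100 to 300 kb the median TES log2 fold change was -0.14 for members and -0.14 for other genes. Members over 300 kb had a median TES log2 fold change of -0.29, with 41 of 207 above 0, and other genes over 300 kb had -0.27, with 20 of 102 above 0. Members of at most 30 kb had 0.10, with 30 of 46 above 0, and other genes of at most 30 kb were not summarised in this way. The gene body gave the same order, at -0.35 for members over 300 kb, -0.20 for other genes of that length and 0.12 for members of at most 30 kb. Library by library, the median gene body level of members over 300 kb was 339, 477 and 244 CPM in WT against 346, 224 and 284 CPM in the knockout. The 3 libraries with the fewest counts were the 3 highest, and the groups overlapped. With depth class as a covariate the gene body median of these members was -0.12, and in the 3 libraries with the most counts its direction turned, to 0.07 (other genes over 300 kb, 0.06). The TES median of members over 300 kb was -0.16 and -0.09 in these fits. For members of at most 30 kb the TES median was 0.11 with the covariate and 0.0037 in the 3 libraries, with 23 of 46 above 0, and the gene body median was 0.06 and then turned, to -0.02, with 18 of 46 above 0. The part of depth in these medians was not tested further.

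**Figure D4:**
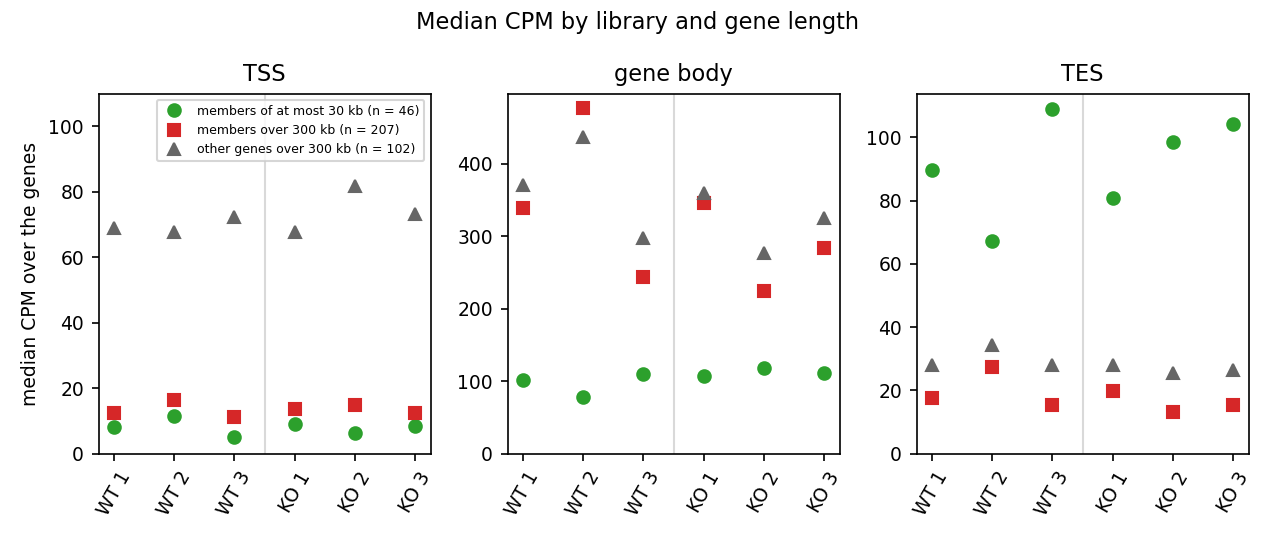
Median CPM per library over TSS, gene body and TES for members of at most 30 kb (green), members over 300 kb (red) and other genes over 300 kb (grey), with 1 point per library and WT left of the vertical line. In the gene body the 2 sets of long genes are highest in WT replicate 2, at 477 and 437 CPM, and lowest in knockout replicate 2, at 224 and 277 CPM.

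At the TSS 0 of the 620 members that passed the count filter were called, and the share over all tested genes was 0.339%. An unadjusted p under 0.05 was found for 28 of them in edgeR (4.52%; all genes 5.57%), and DESeq2, which gave an adjusted p for 248 members, called 1, Dnah9 (all genes 0.867%). Higher TSS counts were found in 19 of these (3.06%; all genes 3.62%) and lower ones in 9 (1.45%; all genes 1.96%). All 3 knockout libraries lay above WT for 38 members (6.13%; all genes 6.47%) and below for 20 (3.23%; all genes 4.93%). The other 14 members were too sparse at the TSS to be fitted. The smallest p belonged to Dnah9, an axonemal dynein heavy chain gene, with TSS levels of 5.44, 8.27 and 2.56 CPM in WT against 16.3, 24.6 and 20.5 CPM in the knockout. The sodium bicarbonate cotransporter gene Slc4a4 had 14.7, 18.6 and 17.9 against 40, 31.2 and 39.2 CPM. Both had all knockout libraries above WT, with log2 fold changes of 2.07 and 1.11 (edgeR, adjusted p = 0.129 and 0.188), and the WT TSS count had helped to choose them. Dnah9 passed with table totals, stacked-table scaling, DESeq2, the replicate block and the depth class covariate, and Slc4a4 with stacked-table scaling and the depth class covariate. Atp5o had 13.1, 17.6 and 12.5 CPM in WT against 5.07, 6.02 and 3.29 CPM in the knockout, all below WT, with a log2 fold change of -1.54 (adjusted p = 0.358).

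In the gene body 0 of 634 members were called, with 0.252% of all genes called (0.244% higher and 0.00787% lower), and DESeq2 called 1, Ctsl (all genes 1.41%). At an unadjusted p under 0.05 in edgeR there were 14 members (2.21%; all genes 5.05%), with 5 higher (0.789%; all genes 4.06%) and 9 lower (1.42%; all genes 0.991%). All 3 knockout libraries lay above WT for 14 members (2.21%; all genes 6.51%) and below for 17 (2.68%; all genes 3.87%). For the TSS to gene body ratio 0 of 620 members were called, with 0% of all genes called, and DESeq2 called 1, Dnah9 (all genes 0.177%). At an unadjusted p under 0.05 in edgeR there were 41 members (6.61%; all genes 3.64%), with 34 higher (5.48%; all genes 1.81%) and 7 lower (1.13%; all genes 1.84%), a lean that the choice on WT itself favours. Among the ratios was that of Vwc2, a secreted regulator of bone morphogenetic protein signalling, whose log2 change was 1.39 (edgeR, adjusted p = 0.955). Its TSS levels were 2.72, 6.21 and 2.24 CPM in WT against 6.75, 8.76 and 8.78 CPM in the knockout, on 18 summed WT counts.

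The class was largely shared between the genotypes. By the knockout ratio, 532 of the 634 members (83.9%) were again in the lowest 5%, 628 were in the lowest 10%, and 0 lay above the median of all genes. The knockout ratio of raw counts was above the WT ratio in 551 members (86.9%). The median raw ratio of other genes was also higher in the knockout, at 0.181 against 0.146 in WT. With each table scaled, 382 of 620 members (61.6%) had a higher ratio in the knockout, against 47.8% of all tested genes. The median number of TSS counts per 100 gene body counts was 0.592, 0.549 and 0.733 for members in WT and 0.788, 1.01 and 0.799 in the knockout, with no overlap. For other genes it was 13.6, 10.8 and 17.5 in WT and 16.1, 19.9 and 16.8 in the knockout, with overlap. These numbers are unscaled, so they also carry the libraries' different totals. Low WT ratios chose the members, so the lack of overlap among members is partly built into the choice.

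Choosing members on low WT ratios biases their knockout change upward, and the change depended on which libraries made the choice. With each table scaled, the median log2 change of the ratio was 0.15 for the members and -0.02 for all tested genes. By the same rule on the knockout libraries it was -0.033, and on all 6 libraries 0.045. At the TSS the median was 0.02 for genes chosen on WT and -0.11 for those chosen on the knockout, and in the gene body -0.16 and -0.10. For the members chosen on WT, the TSS median was 0.17 with depth class as a covariate and 0.36 in the 3 libraries with the most counts. Their gene body median was -0.05 and then turned, to 0.08, and their ratio median was 0.20 and 0.30. The lone WT library among those 3, WT replicate 3, held the most TSS counts of the WT libraries that chose the members. It also had their lowest median TSS level in each length class, so the choice on WT still biases these values. The TES median hardly depended on the choice, at -0.13, -0.12 and -0.12 for genes chosen on WT, on the knockout and on all 6.

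**Figure D5:**
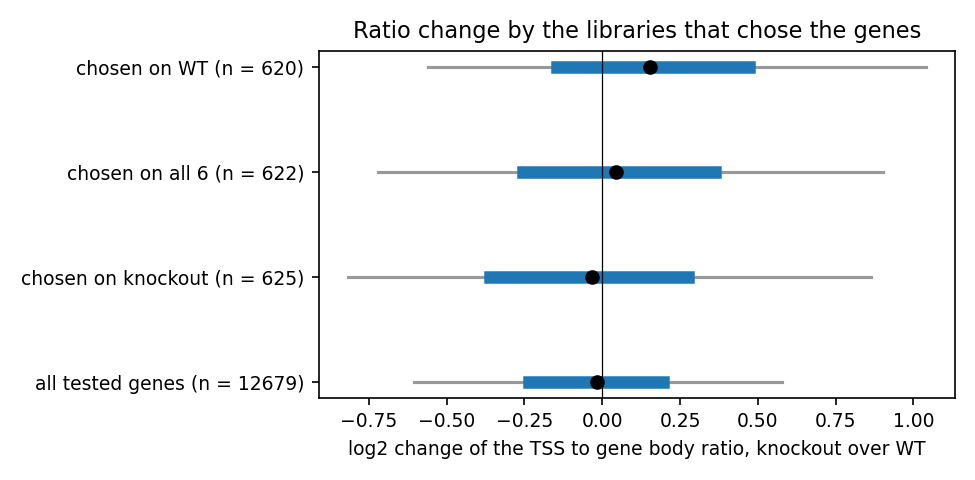
Log2 change of the TSS to gene body ratio, knockout over WT, for genes chosen by the same rule on the WT libraries, on all 6 or on the knockout libraries, and for all tested genes, with points at the median, blue bars from the lower to the upper quartile and grey lines from the 5th to the 95th percentile. The median goes from 0.15 to 0.045 and -0.033 as the choice moves from WT to knockout libraries.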

How the data were processed

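The deposited files used here hold whole-number read counts per gene at the TSS, gene body and TES, made by the authors with 1 column per library and no pooling. Per the submitters' processing notes, which give no role or order, HOMER, MACS2, BWA, Trimmomatic, Picard, limma, edgeR and bcl2fastq 2.20 were used with the builds GRCm38 and mm10. Window widths, counting tool, gene models and use of strand are each not given in the sources used here, and no input library was used. The deposited log2 CPM and the stacked count table repeat these counts and were not used. Armc5 and Th were not analysed here.

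The members, the gene lists and the tests were chosen with earlier results of these data known. Each table was fitted whole in edgeR 4.0.16 (R 4.3.3; TMM scaling, filterByExpr at 10 counts per library and 15 in total, quasi-likelihood F test, Benjamini-Hochberg adjustment over all tested genes, no covariate). The ratio was tested as a region by genotype interaction with library as block. The standard error is the log2 fold change over the square root of F. CPM use the TMM-scaled total of a table. The scripts were tested on simulated data. Depth class sets WT replicates 1 and 2 and knockout replicate 1 against the other 3. Symbols were matched to RefSeq (GRCm38.p6), whose lengths, positions (1-based) and promoters were used.

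Genes named are the 8 members with the lowest ratio and the 8 with the most gene body counts, members called at the TES or else the 5 smallest p in each direction, up to 4 members of each list, the 3 genes on each side of the limit, the 3 smallest p in each other table, the 5 highest at the TES, and the 5 longest and shortest. B3gnt2, Sod2, the genes of the tissue check and those called only in other fits were added after their values were seen.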

Additional observations from a re-analysis of the deposited data

How the results depend on the processing

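The TES calls of Ctsl and Ablim1 kept their direction and stayed past the threshold in all 17 other fits, with adjusted p up to 0.000647 for Ctsl and 0.0325 for Ablim1, the latter without WT replicate 2. The count of members called at the TES was 2, and 2 to 4 with 1 library left out, adding Sncaip and Syt2 without WT replicate 3, H3f3b without WT replicate 2, Rtl4 without knockout replicate 1 and Fgfr2 without knockout replicate 3. It was 5 (0.791%; all genes 1.40%) in the 3 libraries with the most counts, a setting chosen after seeing the data, where the lone WT library is assumed to vary like the others. Those calls were Ablim1, Ctsl, Fgfr2, Pparg and Ttc39c. The replicate block gave 4 calls at the TES (0.631%; all genes 1.53%), adding Npr3 and Syt2, and 1 at the TSS (0.161%; all genes 0.789%). By the labels replicates share only the number. Correlations of same-numbered deviations were 0.441, -0.213 and 0.358 for replicates 1, 2 and 3 in TSS counts, 0.08, -0.582 and 0.27 in gene body counts and 0.03, -0.308 and 0.214 in TES counts. Replicate 1 of both genotypes has a mouse number with a letter prefix, unlike the other 4, and what it marks is not stated. With that prefix as a covariate the calls were 2 for TES and 0 for TSS, gene body and ratio.

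At the TSS the count was 0, 1 with table totals (0.161%; all genes 0.457%), 5 with stacked-table scaling (0.806%; all genes 0.844%), 1 with DESeq2 (0.403%; all genes 0.867%), 2 with the depth class covariate (0.323%; all genes 1.25%) and 0 with any 1 library left out. Gene body and ratio counts were 0, each 1 with DESeq2 and 0 with any 1 library left out. The median TES change ranged from -0.16 to -0.08 and the median ratio change from 0.08 to 0.23 with 1 library left out. The ratio median was -0.033 for genes chosen on the knockout, 0.045 on all 6 libraries, and 0.30 in the 3 libraries with the most counts. Of the 634 members, 556 to 597 were chosen again without 1 WT library, 253 by a limit of 2% and 114 with gene body counts per kb. In each case the cause was not tested, except that a limit of 2% keeps fewer genes by construction. Sparse TSS counts limit what can be said of single members there.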
